A study of Rattus norvegicus with 10 samples.

Results

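SOX9 and SOX6 peaks whose centres lay in short gaps between H3K4me1 peaks were described in RCS cells, an established line from a rat chondrosarcoma, a malignant tumour of cartilage. The members were chosen by position from the deposited peak lists: the midpoint of a SOX peak had to lie in no H3K4me1 interval, with an H3K4me1 interval ending at most 1000 bp before it and another starting at most 1000 bp after it. This gave 1213 of 14782 SOX9 peaks (8.21%; Wilson 95% interval 7.77% to 8.66%) and 1223 of 19355 SOX6 peaks (6.32%; 5.98% to 6.67%), or 2436 of 34137 SOX peaks. These shares, and the absence of H3K4me1 at the centre, follow from the rule and support nothing below.

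The study mapped SOX9, SOX6, H3K27ac, H3K4me1, H3K4me3 and H3K9me3 by chromatin immunoprecipitation and sequencing, with 1 library for each antibody and 4 input libraries made without antibody. All libraries came from RCS cells, and the labels give no treatment or genotype. The cells are a tumour line and stand in for chondrocytes only within that limit, and the label was not set against marker genes, because no expression was measured. With 1 library per antibody no difference has a replicate check and no p-value is given. Confidence intervals describe the error of counting alone. Peaks close to each other share their surroundings, and a second library could differ by more than these intervals.

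Chondrocytes depend on SOX9, a transcription factor that drives their formation, and SOX6 is a partner of the same family that binds with it at cartilage genes. H3K4me1 marks the nucleosomes of enhancers and the flanks of active promoters, where the central nucleosomes carry H3K4me3 in its place. H3K27ac marks active promoters and enhancers, and H3K9me3 marks heterochromatin. Factor binding displaces nucleosomes, and a dip of a histone mark between flanking peaks is a known feature of bound elements and of promoters. A peak list from a culture does not show whether a factor and a mark were on the same DNA molecule.

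Nearly every SOX centre in an H3K4me1 gap was acetylated, and most also carried H3K4me3. An H3K27ac interval covered the centre of 1181 of 1213 SOX9 members, or 97.4% (96.3% to 98.1%), where 78.8% of all SOX9 peaks had one. For SOX6 it covered 1193 of 1223 members, or 97.5% (96.5% to 98.3%), where 73.9% of all SOX6 peaks had one. H3K4me3 covered the centre of 855 SOX9 members, or 70.5% (67.9% to 73.0%), and of 886 SOX6 members, or 72.4% (69.9% to 74.9%). Over all peaks the H3K4me3 shares were 37.2% for SOX9 and 37.0% for SOX6. H3K9me3 lay at the centre of 5 SOX9 members (0.412%) and 5 SOX6 members (0.409%), below its shares of 2.29% and 2.26% over all peaks of these factors.

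**Figure D1:**
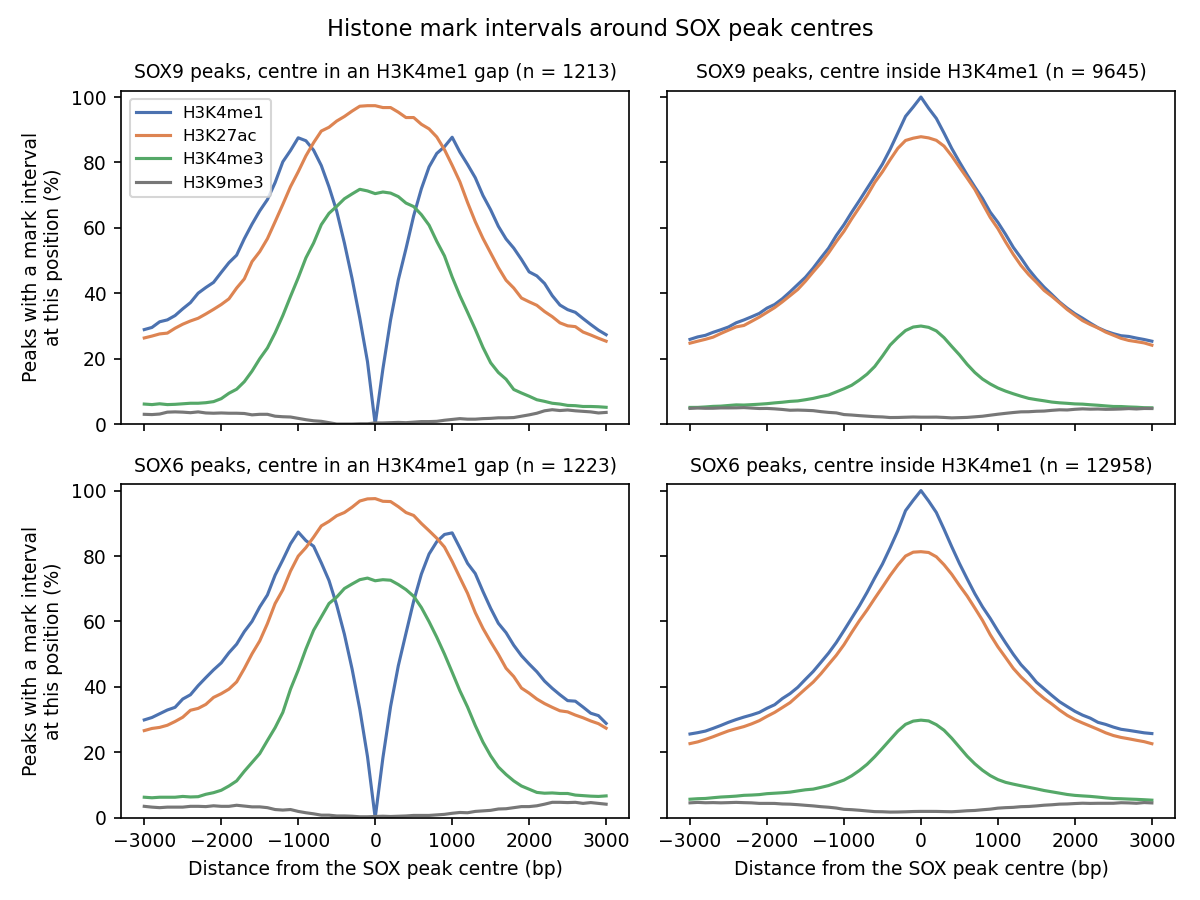
Share of SOX peaks (y axis, percent) with an interval of each mark at a given distance from the SOX centre (x axis, bp), for members on the left and peaks with the centre inside H3K4me1 on the right; SOX9 above, SOX6 below. H3K4me1 falls to 0 at the centre of members by the rule, while H3K27ac reaches 97.4% and 97.5% there and H3K4me3 70.5% and 72.4%.

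Most other peaks had the centre inside H3K4me1, 9645 for SOX9 and 12958 for SOX6. H3K4me3 at the centre was 40.5 percentage points (37.7 to 43.1) more frequent in SOX9 members than in these, where 30.0% had it, and 42.6 points (39.9 to 45.1) more frequent in SOX6 members, against 29.9%. H3K27ac was 9.48 points (8.24 to 10.5) more frequent in SOX9 members, against 87.9% of peaks inside H3K4me1, and 16.2 points (14.99 to 17.2) more frequent in SOX6 members, against 81.3%. Sites with H3K27ac but no H3K4me3 were the smaller class in the gaps and the larger one inside H3K4me1. They made up 27.2% (24.8% to 29.8%) of SOX9 members, against 58.7% (57.7% to 59.7%), and 25.5% (23.1% to 28.0%) of SOX6 members, against 52.9% (52.1% to 53.8%). Over all peaks of each list the shares were 42.5% for SOX9 and 38.8% for SOX6.

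Peaks with H3K4me1 within 1000 bp on only 1 side had H3K4me3 as often as the members or slightly more often. The share was 70.5% of SOX9 members and 76.8% of 1558 peaks with H3K4me1 on 1 side, a difference of -6.28 points (-9.60 to -2.97), and for SOX6 the difference from 2042 such peaks was -2.68 points (-5.83 to 0.421). H3K27ac without H3K4me3 was more frequent in members, by 14.4 points (11.4 to 17.4) for SOX9 and 14.5 points (11.8 to 17.4) for SOX6. H3K4me3 at the centre was therefore not particular to peaks flanked on both sides.

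The gap as a whole was usually spanned by the acetylation mark. H3K27ac intervals covered all of the gap for 990 SOX9 members (81.6%) and 1002 SOX6 members (81.9%), and none of it for 22 and 20. Among all 36802 H3K4me1 gaps of up to 2000 bp, H3K27ac covered 23.98% in full and 53.7% not at all. H3K4me3 covered all of the gap for 691 SOX9 members (57.0%) and 722 SOX6 members (59.0%), part of it for 228 and 223, and none for 294 and 278. Of all gaps it covered 17.1% in full and 77.3% not at all. The members were thus mainly sites where H3K4me1 was interrupted and H3K27ac was not. A gap in H3K27ac as well, by the same rule, was present at 3 SOX9 members (0.247%), against 0.365% of all SOX9 peaks, and at 3 SOX6 members (0.245%), against 0.460% of all SOX6 peaks. The interval of the difference from peaks inside H3K4me1 included 0 for both factors. A gap in H3K4me3 was present at 14 SOX9 members (1.15%), against 0.271% of all SOX9 peaks. Inside H3K4me1 the share was 0.218%, a difference of 0.936 points (0.457 to 1.71). For SOX6 there were 12 such members (0.981%), against 0.258% of all SOX6 peaks. Inside H3K4me1 the SOX6 share was 0.224%, a difference of 0.757 points (0.327 to 1.49).

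The gaps that held the members had a median width of 785 bp for SOX9 (quartiles 457 and 1083 bp) and 757 bp for SOX6 (456.5 and 1070 bp), in a range from 12 to 1946 bp. The rule allows at most 2000 bp. The median over all gaps of up to 2000 bp was 479 bp. The SOX lists were also moved along the chromosomes in 99 steps. The median gap of the moved centres was 650 to 1006 bp for SOX9 and 704 to 952 bp for SOX6. These ranges include the observed widths, which lay below the medians of the moved lists, 839 bp for SOX9 and 821 bp for SOX6. Gaps were wider where H3K4me3 covered the centre, with medians of 878 bp for SOX9 and 834 bp for SOX6. They were narrower at centres with H3K27ac alone, with 539 and 569 bp. Width also went with score, the value the authors gave each peak, whose scale the sources used here do not state. Members of the lowest score quintile, formed over the whole list of a factor, sat in gaps with a median of 976 bp for SOX9 and 839 bp for SOX6, and members of the highest quintile in gaps of 552.5 and 629 bp.

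Of SOX9 members, 399 (32.9%) lay within the gap over their full length, 438 (36.1%) reached into H3K4me1 on 1 side and 376 (31.0%) reached into it on both sides. For SOX6 the numbers were 473 (38.7%), 430 (35.2%) and 320 (26.2%). Peaks that reached both sides were wide, with medians of 1044 bp for SOX9 and 861.5 bp for SOX6, over gaps with medians of 345 and 309.5 bp. Among all members the median peak width was 673 bp for SOX9, against 588 bp inside H3K4me1, and 542 bp for SOX6, against 507 bp.

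SOX9 centres were not gathered at the middle of the gap, and SOX6 centres were not when all gaps of up to 1000 bp were taken. Position was read only in gaps of up to 1000 bp, where the rule sets no limit on it, which left 829 SOX9 and 862 SOX6 members. The central 50% of the gap held 403 SOX9 centres, or 48.6% (45.2% to 52.0%), and 429 SOX6 centres, or 49.8% (46.4% to 53.1%). Both intervals include the 50% of an even spread. With a reach of 500 bp, and position read in gaps of up to 500 bp, the central share was 47.6% (42.4% to 53.0%) for SOX9 and 55.9% (50.7% to 61.1%) for SOX6, so in these narrow gaps the SOX6 interval lay above 50%. When the gap was divided into 10 equal parts, each part held 8.20% to 12.4% of SOX9 centres and 8.82% to 11.4% of SOX6 centres, where an even spread gives 10%. The centre lay left of the middle for 401 and right of it for 426 SOX9 members, and for 438 and 421 SOX6 members.

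**Figure D2:**
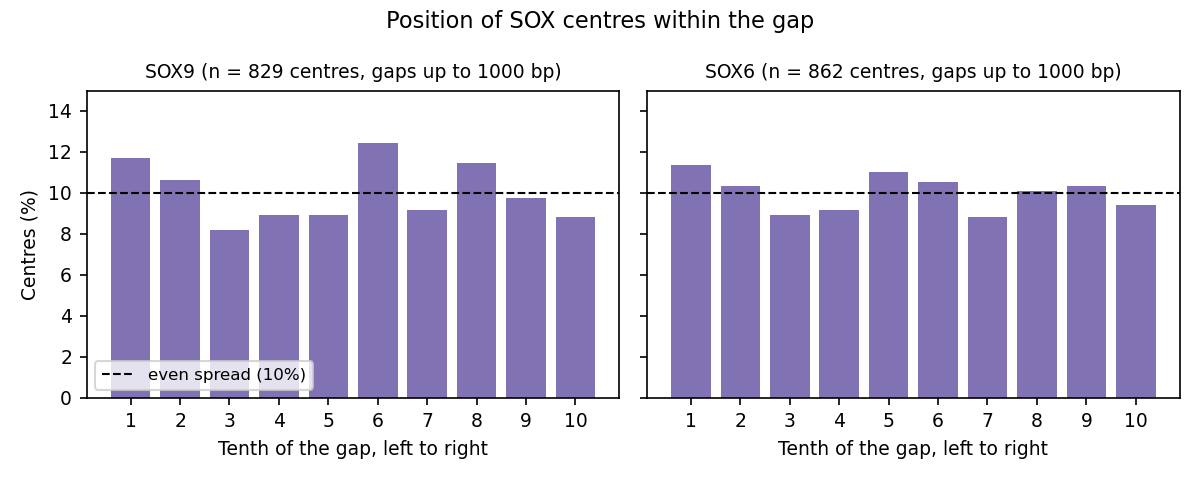
Share of SOX centres (y axis, percent) in each of 10 equal parts of the gap, from its lower to its higher coordinate (x axis), for 829 SOX9 and 862 SOX6 members in gaps of up to 1000 bp; the dashed line is an even spread. The bars lie between 8.20% and 12.4%. The tallest SOX9 bar is the sixth, just right of the middle (12.4%), with 8.93% in the fifth, and the tallest SOX6 bar is at the left end (11.4%).

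The 2 main classes of chromatin were alike in this. With H3K4me3 at the centre, 49.8% (45.6% to 54.1%) of SOX9 and 50.3% (46.3% to 54.4%) of SOX6 centres were in the central 50%. With H3K27ac alone the shares were 45.5% (39.7% to 51.4%) and 46.1% (40.04% to 52.2%). The midpoint of a peak stood in for the point of binding, since no summit was used here. Members with neither mark at the centre were few, 28 for SOX9 and 25 for SOX6. In gaps of up to 1000 bp 14 of 24 such SOX9 centres and 17 of 22 such SOX6 centres were in the central 50%, with intervals of 38.8% to 75.5% and 56.6% to 89.9%. The requirement that the whole SOX peak lie outside H3K4me1 raised the central share to 88.5% for SOX9 and 85.03% for SOX6, as it must, because a peak of some width cannot be centred near an edge without meeting it.

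As a background, each SOX list was moved round every chromosome in 99 steps of 1% of its length, which keeps the spacing of the peaks. By the same rule 1213 SOX9 centres were observed in gaps, against 58 to 138 in the moved lists (median 86), and 1223 SOX6 centres were observed, against 81 to 177 (median 113). The observed number was 14.1 times the median of the moved lists for SOX9 and 10.8 times for SOX6. Centres inside H3K4me1 numbered 9645 observed and 544 to 874 after moving for SOX9, and 12958 observed and 773 to 1189 after moving for SOX6, or 14.7 and 15.2 times the median. For every 100 SOX9 centres inside H3K4me1 there were 12.6 in gaps, within the range of the moved lists (8.55 to 16.6). For SOX6 there were 9.44, below the range of 10.02 to 16.3. Relative to sequence inside H3K4me1, the gaps thus did not hold more centres than the moved lists gave. H3K27ac was at 97.4% of the observed SOX9 centres in gaps, against 18.8% to 44.6% in the moved lists, and at 97.5% of the observed SOX6 centres, against 22.9% to 43.4%. H3K4me3 was at 70.5% of the observed SOX9 centres, against 13.8% to 33.3% in the moved lists, and at 72.4% of the observed SOX6 centres, against 15.1% to 31.1%. The central 50% of the gap held 48.6% of the observed SOX9 centres, within the 33.8% to 66.7% of the moved lists, and 49.8% of the observed SOX6 centres, within 37.8% to 65.2%.

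Counted per length of sequence, SOX centres in the gaps lay mostly in acetylated sequence. The positions that the rule admits made up 15.2 Mb, with 79.7 SOX9 centres per Mb (exact Poisson interval 75.2 to 84.3), against 83.02 per Mb (81.4 to 84.7) inside H3K4me1. The ratio was 0.960 (0.903 to 1.02). For SOX6 the gaps held 80.3 per Mb (75.9 to 84.9), against 112 per Mb (109.6 to 113) inside H3K4me1, a ratio of 0.720 (0.679 to 0.764). These near or lower densities joined unlike kinds of sequence.

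Where H3K27ac was present, the gaps held more SOX9 centres per Mb than H3K4me1-covered sequence, and where neither H3K27ac nor H3K4me3 was present they held almost none. Under H3K27ac the gaps had 236 SOX9 centres per Mb (222 to 249) over 5.01 Mb, against 152 (149 to 156) inside H3K4me1, a ratio of 1.55 (1.45 to 1.64). For SOX6 the densities were 238 (225 to 252) and 189.6 (186 to 193), a ratio of 1.26 (1.18 to 1.33). With H3K27ac but no H3K4me3 the ratios were 1.65 (1.48 to 1.85) for SOX9 and 1.29 (1.15 to 1.44) for SOX6. With both marks they were 1.31 (1.21 to 1.41) for SOX9 and 1.04 (0.961 to 1.11) for SOX6, the last an interval that includes 1. Gap sequence with neither mark, 10.1 Mb of the 15.2 Mb, had 28 SOX9 centres, or 2.78 per Mb, against 19.2 per Mb inside H3K4me1, and 25 SOX6 centres, or 2.48 per Mb, against 39.4 per Mb. These ratios were 0.144 (0.0955 to 0.210) and 0.0630 (0.0407 to 0.0933). How the height of H3K27ac differed between gaps and H3K4me1 peaks was not measured here.

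**Figure D3:**
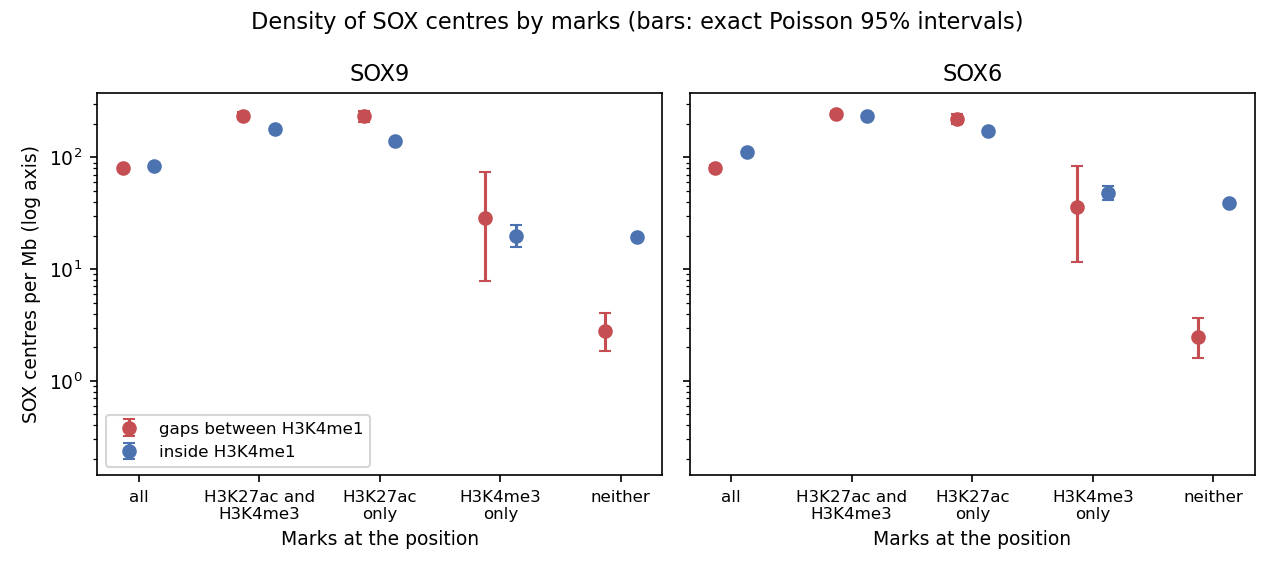
SOX centres per Mb of sequence (y axis, log scale) in gap positions admitted by the rule and inside H3K4me1, by the marks present at the position (x axis); points are densities and bars exact Poisson 95% intervals. With H3K27ac only, the point for gaps lies above that inside H3K4me1 for both factors (ratios of 1.65 and 1.29), and it lies far below where neither mark was present.

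Most H3K4me1 gaps held no SOX centre. There were 36802 gaps of up to 2000 bp, of which 1197 (3.25%) held a SOX9 centre by the rule, 1183 (3.21%) a SOX6 centre and 1788 (4.86%) a centre of either factor. The middle of the gap lay in H3K27ac in 1723 of the gaps with a SOX centre, or 96.4% (95.4% to 97.1%), against 9456 of 35014 gaps without one, or 27.01% (26.5% to 27.5%), and in 30.4% of all gaps. H3K4me3 was at the middle of 75.6% (73.6% to 77.5%) of gaps with and 16.8% (16.4% to 17.2%) of gaps without a SOX centre, and of 19.7% of all gaps. H3K9me3 was at the middle of 0.391% (0.190% to 0.806%) and 1.91% (1.77% to 2.06%), and of 1.84% of all gaps. Thus the acetylated gaps without a SOX centre by the rule, 9456, outnumbered those with one, 1723.

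The difference in H3K27ac lay between 66.5 and 73.8 points in each of 4 classes of gap width. In gaps of 1 to 250 bp the middle was acetylated in 95.5% of gaps with a SOX centre, against 28.9% of gaps without. In gaps of 1001 to 2000 bp the shares were 97.9% and 28.2%, with centres counted by the rule. The difference in H3K4me3 was smaller in the narrowest gaps, at 38.5 points (31.6 to 45.5), than in the widest, at 63.9 points (60.8 to 66.4).

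The share of gaps with a SOX centre differed by width and by marks. Where H3K27ac but not H3K4me3 covered the middle, 2.50% (1.96% to 3.18%) of gaps of 1 to 250 bp and 18.0% (15.2% to 21.1%) of gaps of 501 to 1000 bp held a SOX9 centre. With both marks the shares were 4.35% (3.31% to 5.71%) and 16.7% (15.1% to 18.3%). The SOX6 shares were 2.53% and 18.7% with H3K27ac only and 5.51% and 16.8% with both marks. Per length of gap the centres were about as frequent in the wider class with H3K27ac only, and less frequent with both marks. With H3K27ac only there were 0.254 SOX9 centres per kb in gaps of 1 to 250 bp and 0.263 in gaps of 501 to 1000 bp, and 0.258 and 0.269 SOX6 centres. With both marks there were 0.389 and 0.225 SOX9 centres per kb and 0.492 and 0.239 SOX6 centres. Above 1000 bp the rule admits only the central part, which lowers the count there. Where neither mark covered the middle, 39 of 25215 gaps held a SOX9 centre (0.155%) and 32 a SOX6 centre (0.127%).

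**Figure D4:**
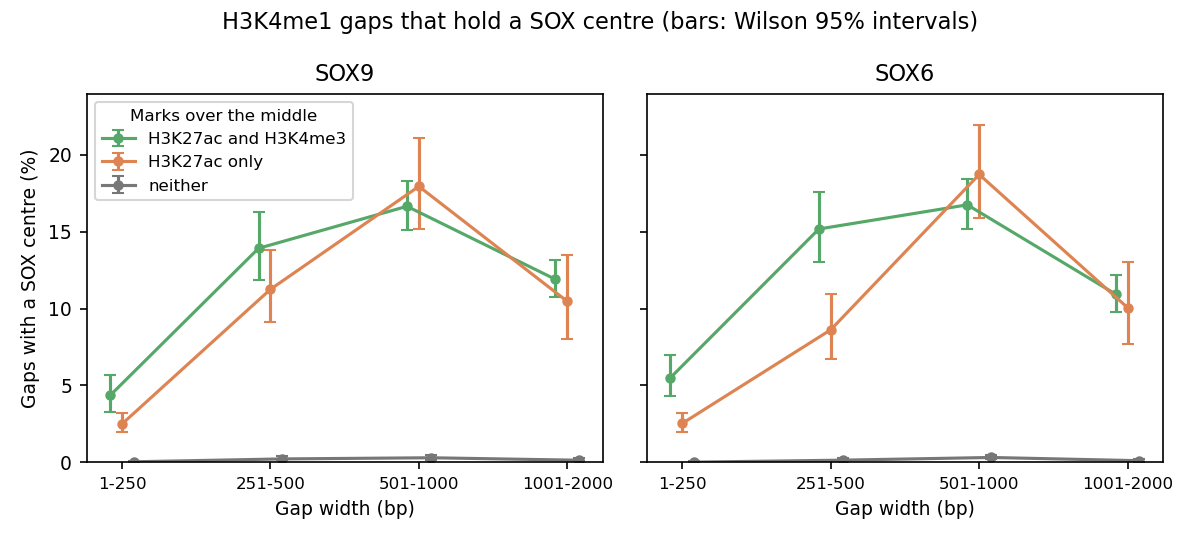
Share of H3K4me1 gaps with a SOX9 (left) or SOX6 (right) centre (y axis, percent) by gap width (x axis, bp) and by the marks over the middle of the gap; bars are Wilson 95% intervals. Acetylated gaps of 501 to 1000 bp held a SOX9 centre in 16.7% and 18.0% of cases, and gaps with neither mark in under 1%. Centres were counted by the rule.

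The H3K4me1 intervals beside the members were wider, and scored higher, than H3K4me1 intervals as a whole. Over both sides the flanks of SOX9 members had a median width of 1184 bp and those of SOX6 members 1188.5 bp, against 945 bp for all H3K4me1 intervals. Their median scores were 301 and 299, against 155 for all. The sides were alike, with medians of 306 before and 297 after SOX9 members and of 309 and 289.9 for SOX6 members. Gaps were also ranked by the score of their weaker flank and divided into 4 equal groups. The share with a SOX9 centre was 1.46% (1.23% to 1.72%) in the lowest and 5.58% (5.12% to 6.06%) in the highest group, and the share with a SOX6 centre 1.46% and 5.50% (5.05% to 5.98%).

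Members scored higher than other SOX peaks. The median score was 125 for SOX9 members (quartiles 72.6 and 378), against 109 (67.6 and 232) for peaks inside H3K4me1, and 153 (78.5 and 386) for SOX6 members, against 119.9 (71.9 and 247). The highest score quintile held 34.0% (31.4% to 36.7%) of SOX9 members, against 23.5% of peaks inside H3K4me1, and 33.03% (30.5% to 35.7%) of SOX6 members, against 22.5%. Members made up 4.36% of SOX9 peaks in the lowest quintile and 13.9% in the highest, and 4.26% and 10.4% of SOX6 peaks. Peaks inside H3K4me1 also made up more of the highest quintile, 44.0% and 76.8% for SOX9 and 49.1% and 75.3% for SOX6. The lowest quintile held 10.6% of SOX9 members, a difference from peaks inside H3K4me1 of -2.86 points (-4.62 to -0.888). For SOX6 it held 13.5% of members, and the interval of the difference included 0 (-3.08 to 0.937).

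The score divided the members by chromatin. In the lowest quintile of SOX9 score H3K4me3 was present at 88.4% (81.7% to 92.8%) of members, against 27.3% of peaks inside H3K4me1, and in the highest quintile at 48.8% (44.0% to 53.6%), against 35.4%. For SOX6 the shares were 87.3% (81.3% to 91.5%), against 24.6%, in the lowest quintile and 55.4% (50.6% to 60.2%), against 34.7%, in the highest. H3K4me3 was thus less frequent in the highest than in the lowest quintile among members, and more frequent among peaks inside H3K4me1. The difference narrowed to 13.4 points (8.19 to 18.6) for SOX9 and 20.7 points (15.5 to 25.8) for SOX6 in the highest quintile. H3K27ac stayed between 94.8% and 99.03% of SOX9 members and between 95.5% and 98.9% of SOX6 members in every quintile. Among peaks inside H3K4me1 it rose with score, so this difference narrowed too. For SOX9 it went from 19.1 points (13.5 to 22.5) in the lowest quintile to 2.55 points (0.905 to 3.58) in the highest. For SOX6 it went from 27.5 points (23.1 to 30.2) to 3.40 points (1.30 to 4.78).

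Whether members of 1 factor met a peak of the other went with score. An overlap of at least 1 bp was found for 744 SOX9 members, or 61.3% (58.6% to 64.04%), where 56.3% of all SOX9 peaks had one, and for 757 SOX6 members, or 61.9% (59.1% to 64.6%), where 44.1% of all SOX6 peaks had one. From the lowest to the highest quintile of score the share was 20.9%, 25.8%, 47.8%, 67.7% and 95.4% of SOX9 members and 29.7%, 36.5%, 52.1%, 64.3% and 89.9% of SOX6 members. Counted by a centre of the other factor in the same gap it was 49.9% of SOX9 and 50.5% of SOX6 members, and among members wholly outside H3K4me1 an overlap was found for 48.6% and 48.8%. Set against peaks inside H3K4me1, the share differed by -5.93 points (-8.86 to -3.07) for SOX9 members, against 67.3%, and by 10.6 points (7.69 to 13.4) for SOX6 members, against 51.3%. Within quintiles of score, from the lowest to the highest, the SOX9 difference was -15.4, -21.8, -12.04, -10.8 and 0.320 points, and only in the highest did its interval include 0 (-2.29 to 2.22). The SOX6 difference was 5.87, 6.86, 9.46, 2.68 and 4.30 points, and its interval excluded 0 in the third (2.52 to 16.3) and the fifth (0.754 to 7.20) quintile. Against peaks with H3K4me1 on 1 side, members of both factors had the higher share of overlap. The difference was 13.1 points (9.41 to 16.8) for SOX9 and 23.6 points (20.1 to 26.9) for SOX6. The opposite directions for the 2 factors, seen against peaks inside H3K4me1, were not tested against each other. The shares of members were alike, 61.3% and 61.9%, and the shares inside H3K4me1 were not. There 6488 of 9645 SOX9 peaks and 6650 of 12958 SOX6 peaks met the other factor.

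**Figure D5:**
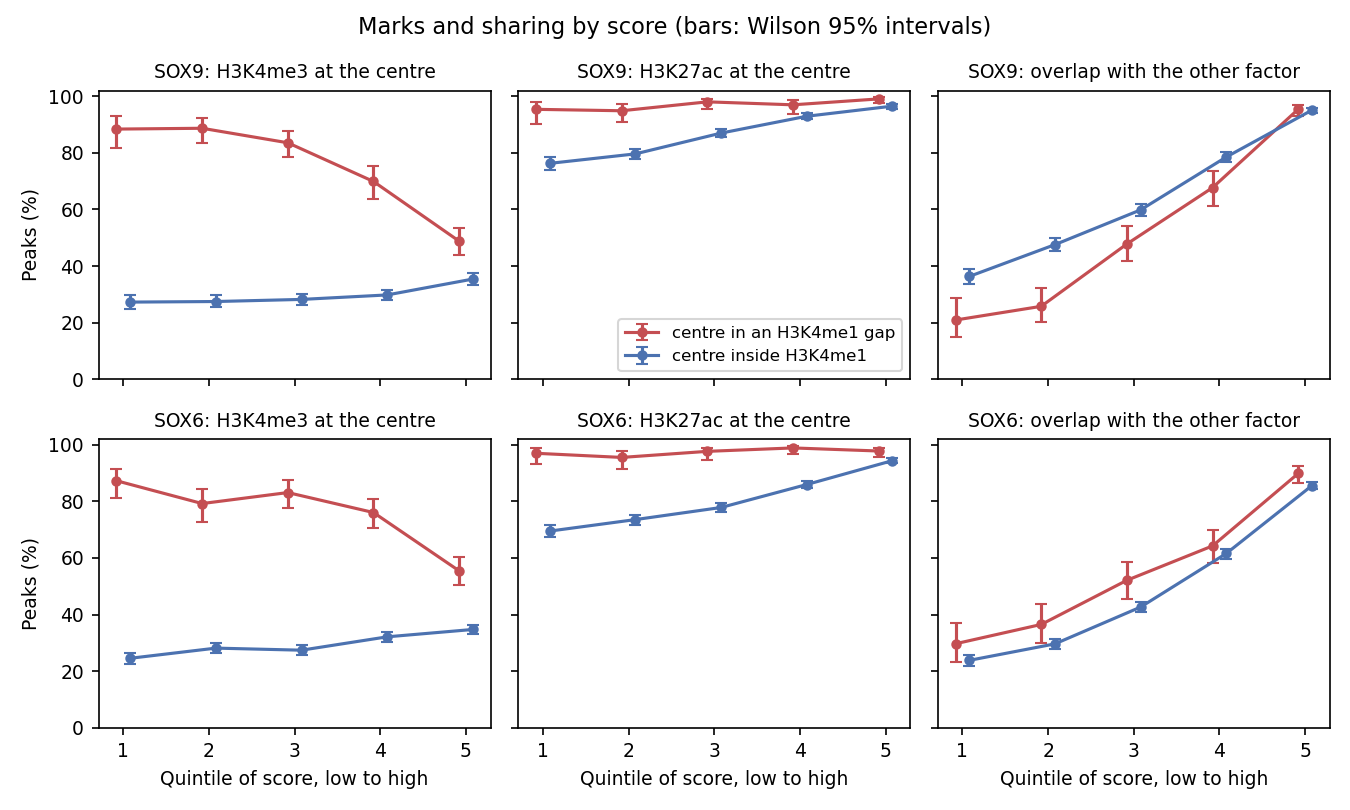
Share of peaks (y axis, percent) with H3K4me3 at the centre, H3K27ac at the centre or an overlap with the other factor, by quintile of score (x axis, low to high), for members and for peaks with the centre inside H3K4me1; bars are Wilson 95% intervals. H3K4me3 goes from 88.4% to 48.8% of SOX9 members and from 87.3% to 55.4% of SOX6 members across the quintiles, and sharing rises in both classes.

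The centres of shared members lay close together, at a median distance of 55 bp for SOX9 (quartiles 14 and 129 bp) and 58 bp for SOX6 (15 and 140 bp), well under the median width of the gaps. The other factor's centre lay in the same gap for 593 of the 744 shared SOX9 members (79.7%) and 601 of the 757 shared SOX6 members (79.4%). For most of the rest the nearest overlapping peak of the other factor had its centre inside H3K4me1, 127 for SOX9 and 135 for SOX6. Counted by the rule, 592 gaps held both factors, which is 49.5% of the gaps with SOX9 and 50.04% of those with SOX6. The median gap was 722 bp wide where both factors were present, 855 bp with SOX9 alone and 767 bp with SOX6 alone. Most gaps that held a factor had 1 centre of it, and 16 had 2 SOX9 centres and 40 had 2 SOX6 centres. Within a factor, members are thus nearly as many as their gaps. The 2436 members of both factors together lay in 1788 gaps, so the SOX9 and SOX6 results rest in part on the same gaps.

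The larger distance to an H3K4me1 edge was 1000, 998 and 998 bp for the SOX9 members nearest the limit, with scores of 55.7, 193 and 78.5, and 1001, 1004 and 1006 bp for the nearest SOX9 peaks outside it, with scores of 58.95, 71.4 and 51.3. For SOX6 it was 999, 997 and 996 bp inside the limit, with scores of 291, 161 and 2151, and 1001, 1001 and 1003 bp outside it, with scores of 177, 138 and 60.8.

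The highest-scoring members lay mainly in acetylated gaps, and for each factor 9 of the 10 with the highest score lay in gaps of up to 1000 bp. Among the 10 SOX9 members with the highest score, all 10 met a SOX6 peak, all 10 had H3K27ac at the centre and 0 had H3K4me3 there. H3K27ac covered 9 of these 10 gaps in full. Of the 412 SOX9 members in the highest score quintile, 336 lay in gaps of up to 1000 bp and 95.4% met a SOX6 peak. H3K27ac was at the centre of 99.03% of them and H3K4me3 of 48.8%, so only the count for H3K4me3 was far from these shares. One of the 10 lay on chromosome 1 from 222494745 to 222495930 (rn5), with the score of 3100 that 16 SOX9 peaks share. Its gap of 316 bp, from 222495115 to 222495430, was inside an H3K27ac interval of 19432 bp, and the H3K4me1 interval after it was 11439 bp wide. A SOX9 peak on chromosome 19 from 49220070 to 49221013, also with a score of 3100, sat in a gap of 166 bp and shared its centre with a SOX6 peak. On chromosome 4 from 62591221 to 62592318 a SOX9 peak of 1098 bp sat over a gap of only 28 bp, the smallest of the 10. The largest of the 10, of 1002 bp, was on X at the SOX9 peak from 10269250 to 10270257.

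Among the 10 SOX6 members with the highest score, 9 met a SOX9 peak, 9 had H3K27ac at the centre and 5 had H3K4me3 there. These counts were near the shares of the 404 SOX6 members in the highest score quintile, 89.9%, 97.8% and 55.4%. Of those 404 members, 303 lay in gaps of up to 1000 bp. The highest score, 3220, belonged to a peak on chromosome 2 from 82976305 to 82977486, in a gap of 299 bp that H3K27ac covered in full and H3K4me3 over 12.4%. On chromosome 7 from 37702307 to 37704485 a SOX6 peak of 2179 bp spanned a gap of 455 bp covered in full by both marks. The SOX6 peak on chromosome 3 from 181469463 to 181470218, with a score of 2970, met no SOX9 peak, and H3K27ac and H3K4me3 both covered its gap of 728 bp in full. The peak on chromosome 10 from 89309698 to 89310048 had no H3K27ac at its centre, and H3K27ac covered 33.6% of its gap of 865 bp. The sets of 10 members had 2 gaps in common, on chromosome 9 from 43853526 to 43853696 (171 bp) and on chromosome 19 from 49146174 to 49146686 (513 bp). In the first the SOX9 and SOX6 centres were 3 bp apart, with scores of 3100 and 2845, and in the second 26 bp apart, with scores of 2848 and 2806. Neither gap held H3K4me3.

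In 5 gaps 2 SOX9 and 2 SOX6 centres lay together, which is the highest number. The first was the gap on chromosome 10 just named, where the SOX9 centres lay 230 and 575 bp and the SOX6 centres 229 and 608 bp from its left edge. There the SOX9 scores were 81.6 and 83.1 and the SOX6 scores 402 and 2852. The gap on X from 113544867 to 113545949 had SOX9 centres 304 and 728 bp and SOX6 centres 294 and 670 bp from the left edge, with H3K27ac over 86.5% of it and no H3K4me3. Another spanned chromosome 6 from 83707246 to 83707917 and was covered in full by both marks, as was one that began at 120450493 and ended at 120451357 on chromosome 5. The last, on chromosome 3 from 128605760 to 128606910, was covered in full by H3K27ac and over 85.0% by H3K4me3. In each of the 5 gaps the SOX9 and SOX6 centres fell into a left and a right pair.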

How the data were processed

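Peak lists of 6 immunoprecipitations, each called on 1 library, were used. Peak names in the deposited files carry the name of MACS, and the submitters' processing notes name CASAVA 1.8 and rn5. The peak score is the authors' value, on a scale not given in the sources used here, and was used only within a list. Caller settings and aligner are not given there either. The inputs are deposited counts of aligned reads per chromosome, not normalised (36873004 to 131858579 reads, 53.4% to 53.5% aligned). The depth of the immunoprecipitated libraries is unknown.

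Intervals were read as counted from 0 and are printed from 1. Shares have Wilson, differences of shares Newcombe, densities exact Poisson and density ratios conditional binomial 95% intervals. The last peak end stood in for chromosome length. Python 3.11.15, numpy 2.4.6, pandas 2.3.3 and scipy 1.17.1 were used. The position and overlap steps were tested on simulated intervals. The named regions are the 10 highest-scoring members of each factor and the 5 gaps with most centres. The members and comparisons were chosen with earlier results of these data known. The densities per Mb, the gaps by flank score and the chromosomes were added after seeing the data. No rn5 annotation or sequence was used here, so no gene or sequence is given. Alternatives changed the reach, the score limits and the kind of overlap.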

Additional observations from a re-analysis of the deposited data

How the results depend on the processing

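Under the alternatives 56 of 72 values moved, that is, left the 95% interval of the reported value or, for the number of members, changed by over 1.5 times. The central share with a reach of 2000 bp could not move, because position was read only in gaps of up to 1000 bp. No paired analysis was possible because each antibody has 1 library. In the lists that follow values are for SOX9 and then SOX6. With a reach of 500 bp the members numbered 529 and 541, the median gap was 422 and 423 bp, H3K27ac was at 95.8% and 96.1%, H3K4me3 at 57.5% and 63.4%, sharing at 70.9% and 70.98%, and the central share for SOX6 was 55.9% (50.7% to 61.1%), which unlike the reported share lies above an even spread. With 2000 bp there were 1894 and 2066 members, with gaps of 1114 and 1176.5 bp, H3K4me3 at 76.6% and 78.99%, sharing at 58.0% and 55.1%, and H3K27ac at 96.5% for SOX6. With H3K4me1 peaks above the median score there were 725 and 728 members, with H3K27ac at 98.6% and 98.9%, H3K4me3 at 65.1% and 66.2%, and sharing at 70.8% and 71.02%. With the lists of both factors cut to peaks above the median score there were 764 and 775 members, with gaps of 679 and 702 bp. H3K27ac was then at 98.3% and 98.3% and H3K4me3 at 60.9% and 66.7%. Sharing was 68.7% and 68%, counted against the cut list of the other factor, which lacks its lower-scoring peaks. With the whole SOX interval outside H3K4me1 there were 399 and 473 members, with gaps of 1168 and 1103 bp, central shares of 88.5% and 85.03%, which that requirement forces, sharing at 48.6% and 48.8%, and, for SOX6, H3K27ac at 95.8% and H3K4me3 at 75.7%. Any overlap with the SOX interval gave H3K4me3 at 76.3% and 77.6%. Mark peaks above the median score gave H3K27ac at 95.3% and 94.2% and H3K4me3 at 49.1% and 49.5%. A centre of the other factor in the same gap was found for 49.9% and 50.5%. For the other moves the cause was not tested. The call of H3K4me1 sets what counts as a gap, and with no read depth for that library a gap may hold H3K4me1 below the lowest score of its list.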

Other observations

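The share of SOX peaks that lay in H3K4me1 gaps differed between chromosomes. For SOX9 it was 4.75% (3.26% to 6.87%) on chromosome 11 at the low end. At the high end it was 15.2% (10.8% to 20.8%) on chromosome 20, which had only 198 SOX9 peaks. The median over 21 chromosomes was 8.19%. For SOX6 it was 3.97% (2.78% to 5.64%) on chromosome 11 and 11.3% (7.80% to 16.0%) on X, which had only 231 SOX6 peaks. The SOX6 median was 6.59%. Input reads without a mismatch per Mb, relative to the median chromosome and averaged over the 4 input libraries, were 1.63 on chromosome 11, 0.712 on chromosome 20 and 0.595 on X. Chromosome 16 had the highest relative input, 2.05, with 7.15% of SOX9 and 4.91% of SOX6 peaks in gaps. Over the 21 chromosomes, which share the same libraries, Pearson's r of the share with relative input was -0.63 for SOX9 and -0.65 for SOX6, given as a description. For members per Mb of chromosome r was 0.34 for SOX9 and 0.32 for SOX6, of the opposite sign. The part of input depth in these shares was not tested.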
